A study of Mus musculus with 3 samples.

Results

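The genes of major histocompatibility complex (MHC) class I antigen presentation were measured in cells of mouse long bones, 9 genes of the 55422 in the count tables: the heavy chains *H2-D1* and *H2-K1*, the shared light chain *B2m*, the peptide transporter subunits *Tap1* and *Tap2*, the loading factor *Tapbp*, the immunoproteasome subunits *Psmb8* and *Psmb9*, and the transactivator *Nlrc5*. They were taken by symbol, each from 1 row, and were selected on a measured value: the *H2-D1* level, which had been seen to be lower in septoclasts than in metaphyseal stroma in every library. That contrast is therefore given as a description without a test, and the tests below make other comparisons. Those of dpMSCs, osteoblasts and endothelium, named below, use the same metaphyseal stroma as reference. They therefore share values with the selection and are not independent of it.

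Class I molecules carry peptides of cytosolic origin to the surface of nearly all nucleated cells, where T cells and natural killer cells read them. The immunoproteasome cuts proteins into peptides, the TAP transporter moves them into the endoplasmic reticulum, tapasin (the *Tapbp* product) holds the empty heavy chain and β2-microglobulin at the transporter until a peptide is bound, and NLRC5 switches on the class I genes together with factors at an upstream promoter module. Interferons raise many of these genes, and growth plate cartilage and mineralizing bone cells are not professional antigen-presenting cells.

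Of the 9 genes, 7 lie in the MHC region of chromosome 17. In GRCm38 with the Gencode M21 annotation, *H2-K1* lies at 33996017 to 34000347 on the minus strand and *H2-D1* at 35262730 to 35267499 on the plus strand. Between them lie *Psmb9* (34181987 to 34187764), *Tap1* (34187553 to 34197225), *Psmb8* (34197721 to 34201454) and *Tap2* (34203527 to 34216321), with *Tapbp* on the centromeric side (33915899 to 33929292). *B2m* is on chromosome 2 (122147686 to 122153083) and *Nlrc5* on chromosome 8 (94434356 to 94527272). All are protein-coding, and *Tapbp* shares 3422 bases with *Zbtb22* on the same strand. *H2-D1* and *H2-K1* are near copies of other class I genes, and of the 50-base words in the last 400 bases of their transcripts, which 3′ reads sample, 12.3% for *H2-D1* and 0.570% for *H2-K1* also occurred in another gene. How the counting treated reads from these shared stretches was not tested.

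The 150 bases before the start sites of the class I chains are shown because these 3 genes encode the class I molecule itself and their promoters share an arrangement of short motifs. Sequences are from RefSeq (GRCm38.p6), which gave start sites for 7 of the 9 genes. Capitals mark TGACG and, 20 bases further on, ATTGG, which reads as a CCAAT box on the other strand, and in *B2m* also the core of an interferon-stimulated response element (ISRE), GAAA and again GAAA after 2 bases. The first runs on the plus strand at chr17:35262944-35263093, the second on the minus strand at chr17:34000348-34000497 and the third on the plus strand at chr2:122147537-122147686.
H2-D1: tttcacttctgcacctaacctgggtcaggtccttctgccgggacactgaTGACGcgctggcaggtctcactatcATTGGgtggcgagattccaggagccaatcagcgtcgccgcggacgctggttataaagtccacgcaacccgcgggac
H2-K1: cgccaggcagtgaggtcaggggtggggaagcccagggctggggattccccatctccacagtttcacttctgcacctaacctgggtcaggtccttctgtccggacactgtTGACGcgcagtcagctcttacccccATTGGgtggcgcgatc
B2m: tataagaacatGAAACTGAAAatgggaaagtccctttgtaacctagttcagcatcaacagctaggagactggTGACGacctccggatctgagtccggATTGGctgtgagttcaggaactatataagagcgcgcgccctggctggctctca
TGACG began 101 bases before the start in *H2-D1*, 41 in *H2-K1* and 78 in *B2m*. From another RefSeq start of *H2-K1*, whose window is not printed, it began 55 bases before. The printed *H2-D1* window lies within its Gencode gene, which begins at 35262730, so RefSeq and Gencode differ on its start. TGACG and ATTGG at this spacing, in this order and searched on both strands, were in 31 of 32851 promoter windows of 300 bases (0.0944%, 27 gene symbols, *H2-M3* among them), and both motifs at any spacing were in 7.73%. The spacing was picked after these 3 promoters had been seen. Alone, TGACG was in 20.8% of windows and CCAAT in 37.4%. The ISRE core, in exactly the letters given above, was in 3.44% of windows. Among the 7 genes with start sites it was only in *B2m*, 139 bases before its start. TTCNNNGAA, an interferon-gamma activated site, was in 8.3% and only in *Psmb8*. Looser forms of these elements were not searched, so the heavy chain promoters are not shown to lack them. The windows of *Tap1* and *Psmb9*, which are transcribed away from each other, share 275 bases. A match describes letters in a window and does not show binding.

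The libraries were made from untreated C57BL/6 mice at postnatal week 3. Metaphyseal replicates 1 and 2 came from wild-type metaphysis from which lineage-positive, CD45+ and CD117+ cells had been removed with beads. The *Pdgfra-GFP* library came from sorted GFP+ cells of mice heterozygous for a nuclear H2B-GFP knocked into *Pdgfra*, so the reporter follows the activity of that gene. For these cells the results of the study name metaphysis and epiphysis together, and its methods the metaphysis. The methods name males, and the labels do not say whether the libraries were separate animals or pools. The p-values therefore measure how populations vary over these 3 libraries once shifts of whole libraries are taken out, and not the spread between animals. The libraries held 22082735 to 91747759 unique molecular identifiers (UMIs, each a captured RNA molecule), and 15719 cells passed the filters, with median depths of 5354 to 6458 UMIs. The metaphyseal libraries shared 0 cell barcodes with each other and 9 and 10 with the *Pdgfra-GFP* library.

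Populations were rebuilt by gating cells on marker genes, none of them a gene of this set, which named 12574 cells and left 3145 unnamed; 493 of the named cells (3.92%) lay near a gate. The septoclast gate (*Sstr2*, *Cd55*, *Otos*, *Mmp9*, *Fabp5*, *Egfr*) held 22 and 17 cells of metaphyseal replicates 1 and 2 and 251 cells of the *Pdgfra-GFP* library, an order kept in the values below. Metaphyseal stromal cells (mpMSCs, gated on *Postn*, *Wif1*, *Aspn*, *Tnn* and *Mmp13*) numbered 46, 33 and 866, and diaphyseal stromal cells (dpMSCs, gated on *Lepr*, *Cxcl12*, *Adipoq*, *Kitl* and *Esm1*) 633, 592 and 3243. Septoclast markers summed to 5241 to 13582 CPM (a gene's UMIs per 1000000 UMIs of a library's cells in a population) in septoclasts and 201 to 219 CPM in mpMSCs. The mpMSC list did not separate the pair, at 7763 to 14091 CPM in septoclasts and 3593 to 6225 CPM in mpMSCs: *Mmp13* was higher in septoclasts (a mean of 10259 against 2063 CPM), whereas *Postn* (149 against 773 CPM) and *Aspn* (13.8 against 334 CPM) were lower. *Tnn* was near 0 in septoclasts and 121 CPM in mpMSCs.

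*H2-D1*, a classical heavy chain, was highest in dpMSCs and lowest in chondrocytes. In dpMSCs the metaphyseal replicates 1 and 2 reached 5900 and 5672 CPM and the *Pdgfra-GFP* library 8051 CPM (mean 6541 ± 1313, SD, n = 3 libraries). In mpMSCs it was at 1389, 1650 and 2247 CPM (1762 ± 440), and in septoclasts at 1340, 1081 and 1095 CPM (1172 ± 146). The libraries of dpMSCs lay above those of mpMSCs without overlap, and septoclasts lay below mpMSCs within each library. Osteoblasts held 724, 849 and 598 CPM and chondrocytes 79.6, 71.9 and 294 CPM, both below every septoclast value in CPM. As CPM divide by the total over all genes, the order of osteoblasts and septoclasts was not checked under another scaling. Against mpMSCs, the *H2-D1* difference of osteoblasts depended on the scaling, as given below.

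In the order of mean levels of *H2-D1*, dpMSCs were followed by macrophages (2574 CPM, *Pdgfra-GFP* library only), mpMSCs and arterial endothelial cells (1410 to 1876 CPM). B-lineage, erythroid, osteoclast, neutrophil and the other endothelial populations came next, with septoclasts between the metaphyseal capillary endothelium (1001 to 1421 CPM) and mural cells (823 to 1331 CPM), then fibroblasts, osteoblasts and chondrocytes. Of the 14 pairs of neighbours in this order, 10 overlapped over their libraries. The pairs that did not were dpMSCs and macrophages, macrophages and mpMSCs, fibroblasts and osteoblasts, and osteoblasts and chondrocytes. Levels of macrophages, fibroblasts and osteoclasts came from 1 library, so of these pairs only osteoblasts and chondrocytes set 3 libraries against 3. *H2-D1* UMIs were found in most cells of most populations. After thinning each cell to 2000 UMIs, at least 99.5% of dpMSCs, 73.9 to 88.3% of mpMSCs, 47.1 to 71.7% of septoclasts and 16.7 to 39.7% of chondrocytes had a UMI, and before thinning 93.5 to 100% of mpMSCs, 94.1 to 95.6% of septoclasts and 50 to 78.0% of chondrocytes. Near-empty droplets, which sample free RNA, held *H2-D1* at 1966 to 2291 CPM, a level above that of septoclasts and of mpMSCs in each library. Its part in these levels was not tested.

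The second heavy chain, *H2-K1*, followed with 3609, 3518 and 3829 CPM in dpMSCs (3652 ± 160), 851, 964 and 1055 CPM in mpMSCs (957 ± 103) and 786, 294 and 354 CPM in septoclasts. Chondrocytes were again lowest, at 60.9, 74.7 and 135 CPM. Near-empty droplets held 1097 to 1250 CPM, above septoclasts and mpMSCs in each library. Of its 14 neighbouring pairs 11 overlapped. The septoclasts of metaphyseal replicate 1 stood above those of the other libraries for this gene.

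*B2m* encodes β2-microglobulin, the light chain of classical and most non-classical class I molecules. It was at 2793, 2879 and 8416 CPM in dpMSCs, 1071, 1591 and 4138 CPM in mpMSCs, 1309, 1231 and 2834 CPM in septoclasts, 895, 1070 and 1590 CPM in osteoblasts and 57.6, 94.0 and 597 CPM in chondrocytes. Its level depended more on the library than that of the heavy chains. The *Pdgfra-GFP* library exceeded the mean of the metaphyseal libraries in 12 of 12 populations for *B2m*, 1.62 to 7.88 times with a median of 3.45, and in 10 of 12 for *H2-D1*, with a median of 1.44. Near-empty droplets of that library also held more *B2m*, 3607 against 1435 and 1447 CPM. Cell isolation, dissected region, genotype and library cannot be told apart here, and the labels name more than 1 version of the droplet kit without tying it to a library.

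**Figure D1:**
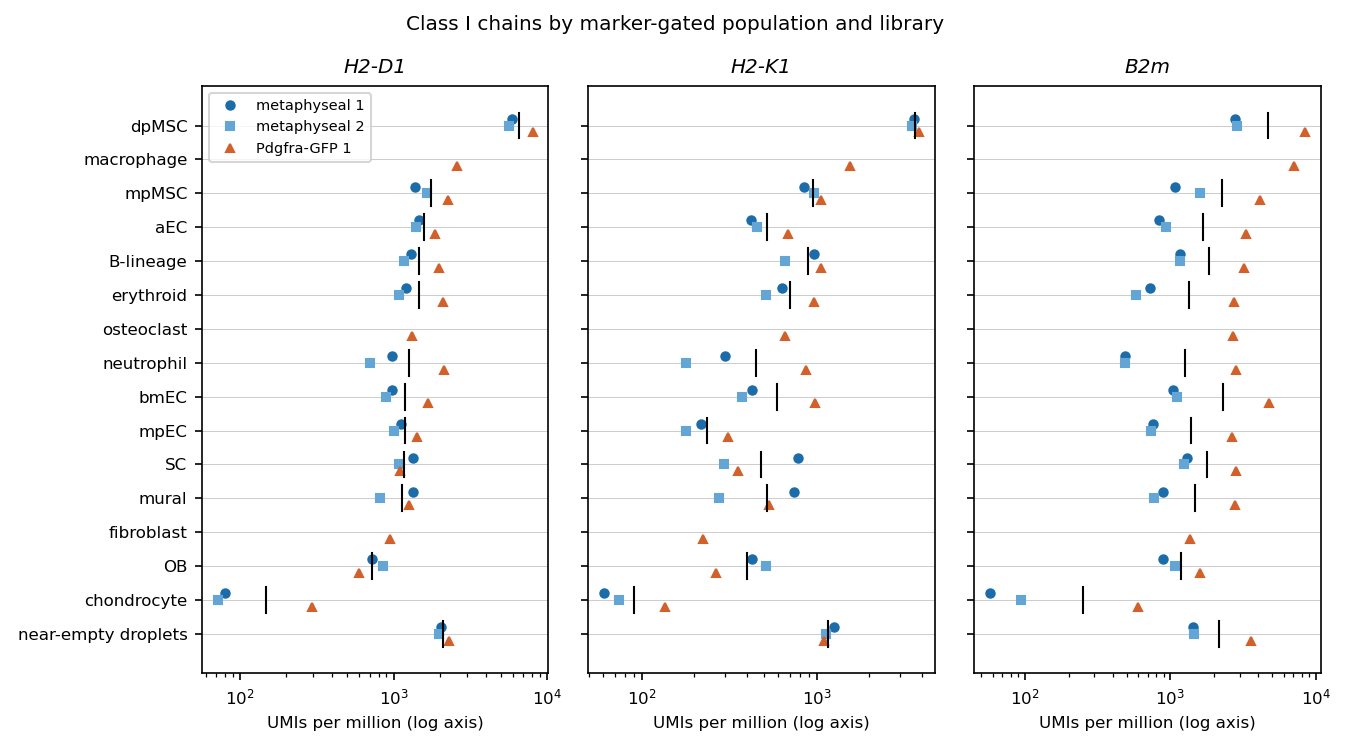
Levels of *H2-D1*, *H2-K1* and *B2m* (CPM on a log axis) in each marker-gated population and in near-empty droplets; points are libraries and lines mark the mean over libraries. The dpMSCs lie at 5672 to 8051 CPM for *H2-D1* and the chondrocytes at 71.9 to 294 CPM, with septoclasts, mpMSCs and endothelial populations between them.

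The peptide transporter genes had a different order. *Tap1* was at 74.5, 65.3 and 71.5 CPM in dpMSCs, 37.6, 24.7 and 30.4 CPM in mpMSCs and 8.79, 24 and 27.2 CPM in septoclasts, where these values rested on 2, 4 and 56 UMIs. B-lineage cells (37.3 to 77.0 CPM) and sinusoidal endothelium (49.9 to 53.1 CPM) were close to dpMSCs, while osteoblasts had 3.67 to 9.49 CPM and chondrocytes at most 4.38 CPM. *Tap2* was as high in arterial endothelium (109, 112 and 114 CPM) as in dpMSCs (108, 106 and 100 CPM), whereas the heavy chains were lower there than in dpMSCs in every library. Septoclasts held *Tap2* at 57.1, 12 and 36.9 CPM from 13, 2 and 76 UMIs and mpMSCs at 25.1, 34.5 and 42.0 CPM, which overlapped.

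*Tapbp*, which encodes tapasin, was at 205, 192 and 239 CPM in dpMSCs, 153 to 179 CPM in arterial endothelium, 62.7, 74.0 and 119 CPM in mpMSCs and 79.1, 102 and 84.5 CPM in septoclasts. Chondrocytes held 35.5, 47.0 and 44.6 CPM, above osteoblasts, which held at most 29.9 CPM, the reverse of their order for the chains. CPM divide by the total over all genes, and this order was not checked under another scaling.

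The immunoproteasome genes had their highest mean levels in macrophages and B-lineage cells, while neutrophils and erythroid cells lay below dpMSCs. Blood cells were those left after the bead removal or the GFP sort, with 52, 35 and 67 B-lineage cells and 77 macrophages. Whether they represent these cell types in bone was not tested. *Psmb8*, which replaces a catalytic subunit of the constitutive proteasome, was at 462 CPM in macrophages, 370, 304 and 275 CPM in B-lineage cells, 268, 248 and 327 CPM in dpMSCs, 125, 104 and 167 CPM in mpMSCs and 136, 138 and 154 CPM in septoclasts. *Psmb9*, a second replacement subunit, was at 147 to 195 CPM in B-lineage cells, 82.8 to 118 CPM in dpMSCs, 18.8, 29.6 and 51.4 CPM in mpMSCs and 30.8, 48.0 and 28.7 CPM in septoclasts. Osteoblasts had 8.92 to 15.8 CPM of *Psmb8* and 3.18 to 5.51 CPM of *Psmb9*. In chondrocytes of the metaphyseal libraries 1 UMI of *Psmb8* and 0 of *Psmb9* were counted, and 0 counts allow up to 5.08 CPM in replicate 1 and 4.15 CPM in replicate 2.

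*Nlrc5* was sparse everywhere. The dpMSCs held 57, 51 and 127 UMIs (15.9, 14.8 and 10.4 CPM), mpMSCs 4, 3 and 40 UMIs and septoclasts 0, 2 and 2 UMIs. The 0 in septoclasts of metaphyseal replicate 1 allows up to 13.2 CPM, which is above the mpMSC level there (6.27 CPM). No difference was therefore detectable at the depth of that library. In the *Pdgfra-GFP* library septoclasts were lower, with 2 of 2058670 UMIs against 40 of 5816310 in mpMSCs. Their counting intervals did not overlap. In metaphyseal replicate 2 septoclasts were higher, with 2 of 166556 UMIs against 3 of 405470, so the direction differed between libraries. This contrast was not tested. Arterial endothelium, where *Tap2* was high, had 1 *Nlrc5* UMI over the 3 libraries.

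**Figure D2:**
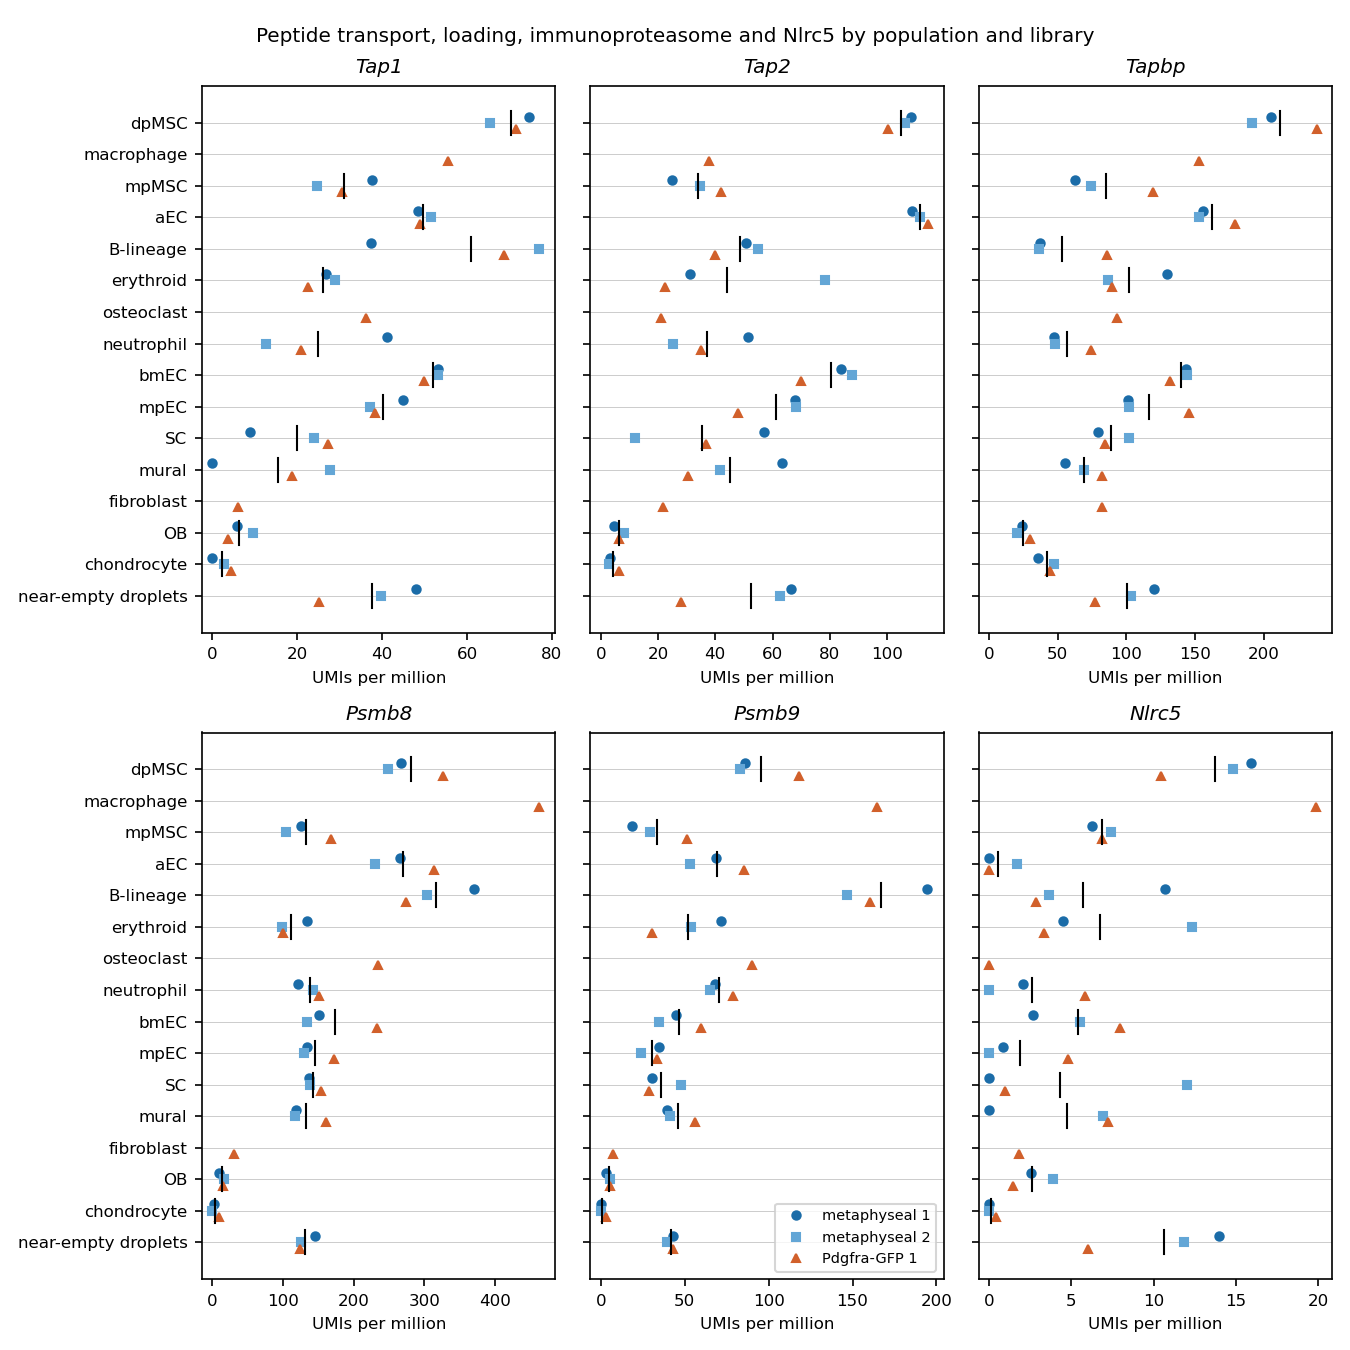
Levels of the peptide transport, loading and immunoproteasome genes and of *Nlrc5* (CPM, linear axes that differ between panels) by population; points are libraries and lines mark means. Arterial endothelium reaches the dpMSC level for *Tap2* (109 to 114 CPM), B-lineage cells lead dpMSCs for *Psmb9*, and osteoblasts and chondrocytes lie near 0 in every panel but that of *Tapbp*.

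Septoclasts were set against mpMSCs library by library, the contrast that chose the set. The septoclast to mpMSC ratio of *H2-D1* was 0.964 for metaphyseal replicate 1 (95% counting interval 0.844 to 1.10), 0.655 for replicate 2 (0.552 to 0.773) and 0.487 among the GFP-sorted cells (0.466 to 0.510). It was below 1 in all 3 libraries, but in the first the interval included 1. For *H2-K1* the ratios were 0.925 (0.776 to 1.10), 0.305 (0.222 to 0.411) and 0.335 (0.310 to 0.362). The *B2m* ratio was 1.22 (1.06 to 1.40) in the first library and 0.774 (0.658 to 0.907) and 0.685 (0.665 to 0.705) in the others, so the light chain was not lower in every library. Intervals cover counting error only.

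Beyond the chains, *Tap1* had ratios of 0.234, 0.974 and 0.894, and *H2-D1*, *H2-K1* and *Tap1* were thus the 3 of 9 genes whose values were lower in each library. For *Tap1* the second ratio rested on 4 septoclast and 10 mpMSC UMIs. In the *Pdgfra-GFP* library its counting intervals overlapped, at 20.5 to 35.3 CPM in septoclasts and 26.1 to 35.3 CPM in mpMSCs. Among the 6327 genes with a mean of at least 20 CPM, 17.1% were lower and 24.5% higher in septoclasts in every library, and nothing is read from the 3 genes against these shares because the rule used the contrast. The ratio of *Tapbp* was 1.26, 1.38 and 0.709, that of *Psmb8* 1.09, 1.33 and 0.922 and that of *Psmb9* 1.64, 1.62 and 0.557, each above 1 in the metaphyseal libraries and below 1 in the *Pdgfra-GFP* library. In metaphyseal replicates 1 and 2 the *Psmb9* ratios rested on 7 and 8 septoclast UMIs. The median gene differed by 0.07, 0.19 and 0.02 on the log2 scale between septoclasts and mpMSCs.

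The size of the *H2-D1* ratio in metaphyseal replicate 1 varied with the handling of its 22 septoclasts and 46 mpMSCs. It was 1.01 with called doublets removed, 0.959 with a stricter gate, 0.938 without cycling cells and 0.821 after thinning, against 0.655, 0.367, 0.675 and 0.315 in replicate 2 and 0.480, 0.521, 0.477 and 0.458 in the *Pdgfra-GFP* library. With doublets removed the statement that the ratio was below 1 in every library therefore no longer held. In metaphyseal replicate 1 the called doublets were 0 of 22 septoclasts and 1 of 46 mpMSCs, so this setting changed only the mpMSC side there. Markers of dpMSCs, in which *H2-D1* was highest, summed to 1595, 1990 and 3645 CPM in mpMSCs and 1995, 2528 and 1516 CPM in septoclasts, lower in septoclasts only in the *Pdgfra-GFP* library, against 30665 to 34056 CPM in dpMSCs. All 5 dpMSC markers were detected in both populations, and their part in the ratio was not tested. Macrophage markers, by contrast, summed to at most 4 CPM in septoclasts and mpMSCs, with all 5 at or near 0.

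**Figure D3:**
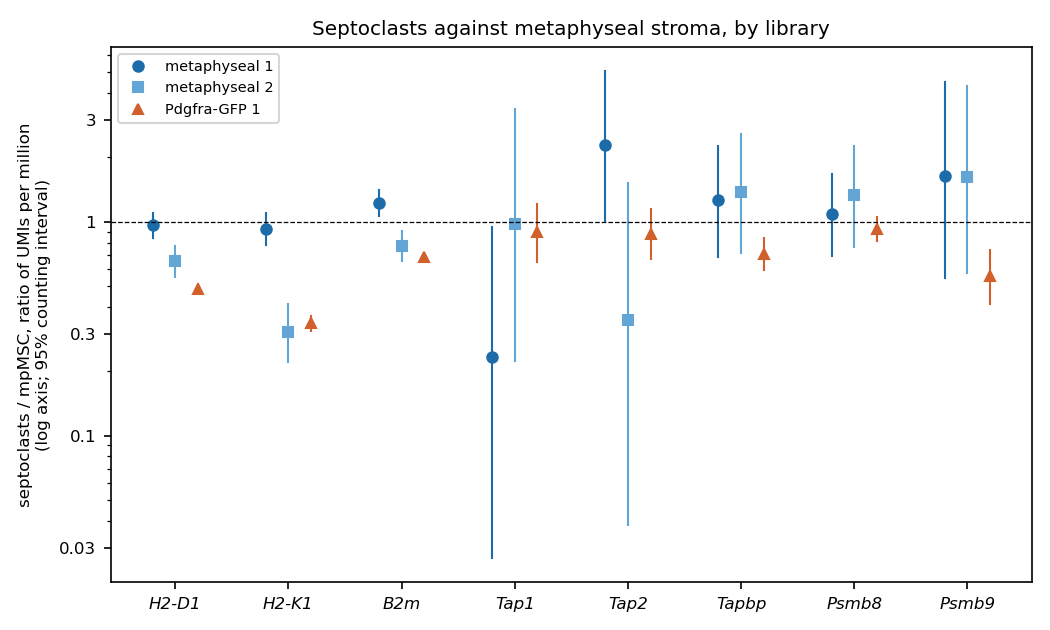
Septoclast to mpMSC ratio of each gene but *Nlrc5* (log axis, dashed line at 1) in each library, with 95% counting intervals. *H2-D1*, *H2-K1* and *Tap1* are at or below the line in every library, while *Tapbp*, *Psmb8* and *Psmb9* lie on both sides of it. The wide bars of *Tap1* and *Tap2* in the metaphyseal libraries rest on few UMIs.

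Levels in dpMSCs were compared with those in mpMSCs by summing UMIs per library and population and fitting all 39 sums of at least 10 cells in 1 model by edgeR's quasi-likelihood test, blocked by library. Of 12513 genes tested, 29% were called, 14.5% being higher and 14.5% lower in dpMSCs at an adjusted p under 0.05, and of the 9 genes 8 were higher and 0 lower, with the same counts from DESeq2 and 8 genes at an unadjusted p under 0.05. Their median log2 difference was 1.18, against 0.05 over all genes tested. The heavy chains differed most, with log2 differences of 1.76 for *H2-D1* (SE 0.28, edgeR adjusted p = 1.1e-05) and 1.80 for *H2-K1* (SE 0.35, edgeR adjusted p = 1.5e-04). *B2m* was higher by 0.94 (SE 0.28, edgeR adjusted p = 0.010), though its libraries overlapped. The 8 genes were higher in 3 of 3 libraries each.

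The peptide-supply genes were higher in dpMSCs as well. *Tap1* rose by 1.07 (SE 0.26, edgeR adjusted p = 0.0017), *Tap2* by 1.39 (SE 0.23, edgeR adjusted p = 1.7e-05) and *Tapbp* by 1.18 (SE 0.20, edgeR adjusted p = 2.3e-05). The immunoproteasome genes followed with 0.96 for *Psmb8* (SE 0.26, edgeR adjusted p = 0.0043) and 1.28 for *Psmb9* (SE 0.25, edgeR adjusted p = 1.2e-04). *Nlrc5*, the transactivator, was at 0.80 (SE 0.45, edgeR adjusted p = 0.198), higher in 3 of 3 libraries without passing the test. The calls of *B2m* and *Psmb8* were lost without metaphyseal replicate 1, where 6 of the 9 genes stayed called, and without the library block.

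Other genes of the pathway were counted from lists, against 14.5% of all genes higher and 14.5% lower in dpMSCs. Of 11 tested genes for non-classical class I molecules, which present special ligands or are held inside the cell, 10 were higher in dpMSCs, among them *H2-T23* (1.79), *Cd1d1* (1.68) and *H2-M3* (1.48), with *Mr1* at 0.34 the exception; *H2-Q6* and *H2-Q7* are near copies of each other and may share reads. Of 9 other genes of peptide supply and loading 4 were higher, the trimming peptidase *Erap1* (1.61), the tapasin relative *Tapbpl* (1.29), the chaperone *Hspa5* (0.76) and the proteasome activator subunit *Psme1* (0.51). Of 12 constitutive proteasome genes 0 were higher and 5 lower by edgeR (0 and 9 by DESeq2, 6 at an unadjusted p under 0.05), *Psma7* (−0.71) most and *Psmb5* (−0.60) next, the latter the subunit that *Psmb8* replaces. Of 12 class I regulators 6 were higher, including *Irf1* (1.54) and *Stat2* (1.30), and the signalling inhibitor *Socs1* (−1.15) and the promoter module subunit gene *Rfxap* (−0.83) were lower. Of 7 interferon receptor and kinase genes 5 were higher, *Ifnar2* (1.5) and *Ifngr1* (1.34) most. Class II genes, which present extracellular peptides, had 1 higher and 1 lower of 9.

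Osteoblasts, the bone-forming cells, were next set against mpMSCs. The peptide-supply and immunoproteasome genes of the set were lower in osteoblasts, whereas the class I chains did not pass the test under the main scaling. In this contrast 28% of genes were called, 14.4% lower and 13.6% higher, and of the 9 genes 5 were lower and 0 higher by edgeR and by DESeq2 (5 at an unadjusted p under 0.05), with a median log2 difference of −1.04 against −0.02 over all genes. *Psmb8* fell by 2.54 (SE 0.28, edgeR adjusted p = 4.3e-08), *Psmb9* by 2.13 (SE 0.29, edgeR adjusted p = 1.5e-06), *Tap1* by 1.75 (SE 0.31, edgeR adjusted p = 6.1e-05), *Tap2* by 1.71 (SE 0.27, edgeR adjusted p = 9.7e-06) and *Tapbp* by 1.04 (SE 0.21, edgeR adjusted p = 2.9e-04), each in 3 of 3 libraries. *H2-D1* was at −0.51 (SE 0.28, edgeR adjusted p = 0.179) and *H2-K1* at −0.50 (edgeR adjusted p = 0.303). *B2m* did not differ detectably (0.01, SE 0.28).

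These values depend on the scaling for the chains. Osteoblasts held single transcripts at very high levels, such as *Bglap* at a mean of 39719 CPM. Scaling by library totals instead of TMM, tried after the data were seen, moved the median of all genes by −0.79 in this contrast and by 0.13 in that of dpMSCs. Under totals 8 of the 9 genes were lower in osteoblasts, with *H2-D1* at −1.20 and *H2-K1* at −1.18, and *B2m* turned from 0.01 to −0.67 (edgeR adjusted p = 0.0517). All genes called under totals were 435 higher and 6698 lower (6.10% higher), against 1700 higher and 1801 lower (48.6% higher) under TMM. The difference between the chains and the peptide-supply genes was not tested.

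Among the listed pathway genes, against 14.4% of all genes lower and 13.6% higher, the calls were as follows. In osteoblasts 4 of 11 tested non-classical genes were lower, *H2-T22* (−1.80) most, and *Cd1d1* was higher (1.31). Of the other peptide-supply genes 3 of 9 were lower, *Psme1* (−1.29), *Psmb10* (−1.21, the third immunoproteasome catalytic subunit) and *Tapbpl* (−1.21). The constitutive proteasome had 1 of 12 higher, *Psmb6* (0.65), the subunit that *Psmb9* replaces, and 0 lower by edgeR. Of the regulators 4 of 12 were lower, and *Rfxap* was higher (1.25). Chondrocytes, which had the lowest mean level among populations with 3 libraries for every gene but *Tapbp*, were in the model without a test of their own.

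Endothelial cells, taken as the mean of arterial, metaphyseal capillary and sinusoidal populations, had higher *Tap2* and *Tapbp* and lower *H2-K1* than mpMSCs, and *Tap1* did not pass the test. Among all genes 43.7% were called, 20.4% higher and 23.3% lower, and of the 9 genes 2 were higher and 4 lower. The number of higher genes was near the share of all genes, so nothing is read from it. *Tap2* was higher by 1.06 (SE 0.22, edgeR adjusted p = 1.2e-04) and *Tapbp* by 0.59 (SE 0.18, edgeR adjusted p = 0.0066). *H2-K1* was lower, with a log2 difference of −1.39 (SE 0.26, edgeR adjusted p = 5.5e-05), as were *H2-D1* at −0.56 (edgeR adjusted p = 0.036) and *B2m* at −0.59 (edgeR adjusted p = 0.029). The last 2 calls were lost in 7 of 12 alternatives each, with adjusted p-values of up to 0.395 for *H2-D1* and 0.681 for *B2m*. Without metaphyseal replicate 1, 2 of the 9 genes stayed called, against 30.2% of all genes. The arterial, metaphyseal capillary and sinusoidal cells of the *Pdgfra-GFP* library, 92, 75 and 93 cells, came from a sort for GFP+ cells.

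*Nlrc5* was lower by 2.52 in the endothelial mean on the log2 scale (SE 0.61, edgeR adjusted p = 9.6e-04), in 3 of 3 libraries. This call was lost only without metaphyseal replicate 1. It rested on few UMIs, 0, 1 and 0 in arterial and 2, 0 and 2 in metaphyseal capillary endothelium, against 4, 3 and 40 in mpMSCs. Sinusoidal endothelium, at 2.65, 5.52 and 7.98 CPM, overlapped mpMSCs at 6.27, 7.40 and 6.88 CPM. Of the other class I regulators listed, 9 of 12 were higher, against 20.4% of all genes. *Nfkb1* (2.03), a subunit of the transcription factor NF-κB, was highest, *Irf9* (1.31) and *Irf2* (0.91) were among them, and *Socs1* was lower (−2.83). Other supply genes were 4 higher, *Erap1* (1.48) and *Psme1* (0.91) most, and 2 lower, the chaperones *Calr* (−0.71) and *Hspa5* (−0.69). Non-classical genes divided into 5 higher, with *H2-T23* at 1.24, and 4 lower, with *Cd1d1* at −1.17.

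Within endothelium, sinusoidal cells (bmECs, gated on *Stab2*, *Mrc1*, *Flt4* and *Stab1*) were compared with metaphyseal capillary cells (mpECs). *H2-K1* was higher in bmECs, with 425, 373 and 981 CPM against 219, 179 and 311 CPM, and in this contrast 9.72% of genes were called (6.07% higher and 3.65% lower). Its log2 difference was 1.31 (SE 0.35, edgeR adjusted p = 0.0126), higher in 3 of 3 libraries, and it was the 1 of the 9 genes that passed. That number was near the share of all genes, so nothing about the set is read from it. *H2-D1* did not separate the pair, with a log2 difference of 0.00 (SE 0.35) and lower values in bmECs in 2 of 3 libraries. Whether the heavy chains differ from each other here was not tested. The call of *H2-K1* was lost without metaphyseal replicate 1, without replicate 2 and without the library block. Of other listed genes *Jak2* (1.77), *Jak1* (1.61) and *Irf1* (0.92) were higher in bmECs. Of 12 constitutive proteasome genes 3 were lower by edgeR and 8 by DESeq2.

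**Figure D4:**
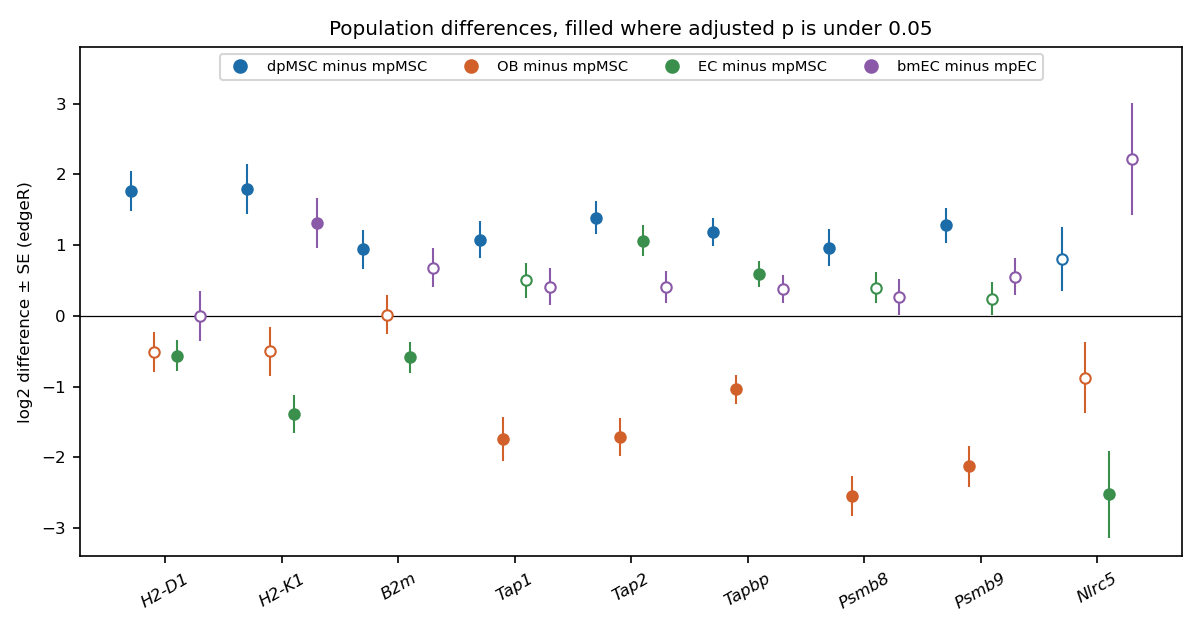
Log2 difference ± SE from edgeR for each gene in 4 contrasts (points offset, filled where the adjusted p is under 0.05). Diaphyseal stromal cells lie above 0 for all 9 genes, osteoblasts lie below −1 for *Tap1*, *Tap2*, *Tapbp*, *Psmb8* and *Psmb9*, and endothelial cells lie above 0 for *Tap2* and *Tapbp* and below it for *H2-K1* and *Nlrc5*.

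Class I genes are textbook interferon targets, so cells were also split by an interferon gate of 10 genes (*Ifit1*, *Ifit3*, *Ifit3b*, *Isg15*, *Rsad2*, *Usp18*, *Cmpk2*, *Oasl2*, *Rtp4*, *Irf7*), none of them in this set, at 4 or more genes detected. In dpMSCs 18.8, 21.5 and 20.2% of cells passed, in endothelium 18.2, 19.95 and 30.7%, in osteoblasts 0.699, 1.45 and 0.700% and in chondrocytes at most 0.417%. Septoclasts passed in 22.7% (5 of 22 cells), 11.8% (2 of 17) and 18.3% (46 of 251), and mpMSCs in 4.35, 3.03 and 8.55%. The gate genes summed to 369, 366 and 548 CPM in septoclasts and 95.5, 150 and 404 CPM in mpMSCs. Septoclasts were thus higher in each library. Their *H2-D1* ratio was below 1 in each before doublets were removed, with an interval that included 1 in metaphyseal replicate 1. A link between the gate genes and *H2-D1* here was not tested.

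Gated and other cells were compared in dpMSCs and in endothelium in a model of 12 sums. *Tap1* was higher in gated dpMSCs in each library, with 89.9, 93.9 and 101 CPM against 70.2, 56.1 and 62.1 CPM, without overlap. In this contrast 0.466% of 12228 genes were called (0.458% higher and 0.00818% lower), and *Tap1* was the 1 of the 9 genes that passed, at 0.62 (SE 0.11, edgeR adjusted p = 0.00996). *Psmb8* (0.39, edgeR adjusted p = 0.094) and *Psmb9* (0.44, edgeR adjusted p = 0.156) were higher in 3 of 3 libraries without passing. The chains moved little, by 0.02 for *H2-D1*, 0.13 for *H2-K1* and 0.12 for *B2m*. Gated cells were deeper, with median UMIs of 6602, 6536 and 4217 against 5365.5, 5396 and 3370.5, and the part of depth was not tested.

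In endothelium *Tap1* was at 67.2, 69.6 and 69.9 CPM in gated and 44.7, 40.5 and 31.9 CPM in other cells, without overlap. Of 12228 genes 0.818% were called (0.638% higher and 0.18% lower), and 3 of the 9 passed: *Psmb9* at 0.76 (SE 0.14, edgeR adjusted p = 0.0102), *Tap1* at 0.75 (SE 0.14, edgeR adjusted p = 0.0080) and *Psmb8* at 0.59 (SE 0.10, edgeR adjusted p = 0.0039). *H2-D1* (0.15), *H2-K1* (0.15) and *B2m* (0.13) did not pass. The gated endothelial cells were deeper too, at 6772, 6688.5 and 6437 against 5708, 5982.5 and 4606.5 UMIs. Endothelium was here the pool of all its 1125, 882 and 277 cells, those without a subtype among them. *Psmb9* differed by subtype, at 53.2 to 85.2 CPM in arterial, 24.3 to 34.6 CPM in metaphyseal capillary and 34.8 to 59.8 CPM in sinusoidal cells. Whether gated and other cells held the same mix of subtypes was not tested. The calls of *Tap1* were lost in 5 of 14 alternatives in dpMSCs and 3 of 14 in endothelium, and in endothelium 0 of the 9 genes stayed called without metaphyseal replicate 1 and 1 without replicate 2.

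The difference of the interferon contrast between endothelium and dpMSCs was tested as an interaction: 3 genes were called (0.0245%, of which 0.00818% higher and 0.0164% lower in endothelium) and 0 of the 9 by edgeR's quasi-likelihood test, with 0 of them at an unadjusted p under 0.05 and 0 called by DESeq2, with the largest difference among the better-counted genes 0.33 for *Psmb9* (SE 0.18). Among the regulators *Stat2* and *Irf9*, which carry the interferon signal to the nucleus, were higher in gated cells in both populations, by 0.95 and 0.69 in dpMSCs and 0.80 and 0.75 in endothelium. Constitutive proteasome genes and interferon receptor genes had 0 calls in either direction in both by edgeR and by DESeq2, with 0 genes of these 2 lists at an unadjusted p under 0.05 in dpMSCs and 1 of each list in endothelium. *H2-T22* was the non-classical gene called, in endothelium (0.67).

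**Figure D5:**
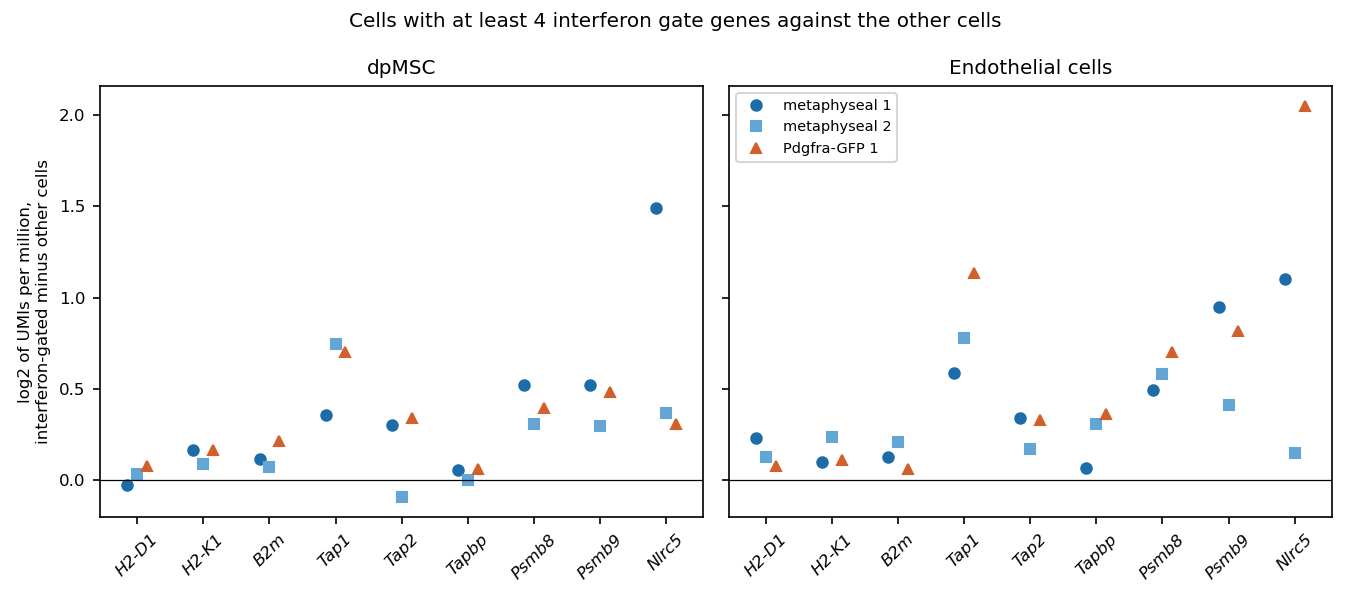
Log2 difference in CPM between interferon-gated and other cells for each gene, in dpMSCs and in endothelium; points are libraries. *Tap1* lies above 0 in each library in both populations, while *H2-D1* stays near 0; *Nlrc5* rests on few UMIs.

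The genes outside the set most like *H2-D1* over the 39 sums, by Pearson's r of log2(CPM + 10) among 6327 genes with a mean of at least 20 CPM, were *Cxcl12* (0.83, a dpMSC gate marker), *Ifngr1* (0.80), *Cars2* (0.79), *Trf* and *Igfbp5* (0.77), *Igfbp4* and *Ifitm3* (0.76), *Dpep1* and *Il10rb* (0.75) and *Ifnar2* (0.74). Within the set *H2-K1* was most like it (0.90), followed by *B2m* (0.85), *Psmb8* (0.79), *Psmb9* (0.71), *Tap1* and *Tap2* (0.68) *Tapbp* (0.64) and *Nlrc5* (0.56), whose mean was under 20 CPM. *Psmb8* and *Psmb9* had an r of 0.93. Sums of a library share its depth and cell suspension, so these are descriptions with no p. The mean *Cxcl12* level was 24543 CPM in dpMSCs, 2148 CPM in mpMSCs and 1686 CPM in septoclasts.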

How the data were processed

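The authors trimmed reads with fastp 0.20 and aligned them with STAR 2.7.3a (STARsolo) to mm10 with Gencode M23 and H2B-GFP, and deposited raw counts (UMIs of each gene in each barcode), with no cell filter. Cells needed 1500 genes (metaphyseal libraries) or 1000 genes (GFP-sorted cells), and mitochondrial UMIs could make up 15% and ribosomal UMIs 30%, which left 2389, 2011 and 11319 cells. EmptyDrops was not used. Scrublet called 25, 18 and 168 doublets, which were kept, and an alternative removed them.

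A cell took the population whose markers had the highest standardized mean log expression, with a score of at least 0.5, a margin of 0.3 and 3 markers detected; endothelial subtypes used 0.3, 0.2 and 1. For each population with 10 or more cells in a library the UMIs were added up and tested with edgeR 4.0.16 in R 4.3.3 (quasi-likelihood, TMM, filterByExpr, library as a block, Benjamini-Hochberg over all genes tested, threshold 0.05). Endothelium is the equal-weight mean of its 3 subtypes in the contrast with mpMSCs, and the pool of all endothelial cells in the interferon contrasts. The model of 39 sums left 22 residual degrees of freedom over all its populations together, and the interferon model of 12 sums left 6. Standard errors are log2 differences divided by the root of F. The methods of the study do not state a test across libraries, so this design was chosen here. Cells of a library share its suspension, which pairs the sums: deviations from population means correlated over 6327 genes with Pearson's r of 0.437, 0.457 and 0.700 between dpMSCs and mpMSCs in the 3 libraries. The scripts were tested on simulated counts first.

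Exact 95% intervals (Poisson for UMI sums, binomial for shares) cover counting error only, and a count of 0 is given as the limit of 3 counts. Named genes were the 9 genes, listed pathway genes and the 10 genes most like *H2-D1*. The genes and lists were chosen with earlier results of these data known. DESeq2 1.42.0, other scalings, filters, gates and left-out libraries were alternatives. Protein sequences were not used here. Values of 1 listed regulator are not reported here.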

Additional observations from a re-analysis of the deposited data

How the results depend on the processing

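Direction held for every named call under each alternative run, and no called value changed sign. Between 1 and 14 alternatives were run for each. With no replicate block, 2189 genes were called between dpMSCs and mpMSCs, 1696 between osteoblasts and mpMSCs, 487 between bmECs and mpECs, 9 for the interferon gate in dpMSCs, 10 in endothelium and 1 for the interaction. In endothelium against mpMSCs 4560 of 12513 genes (36.4%) were then called, and 3 of the 9 class I genes, near that share. In bmECs against mpECs (3.89% of all genes called) and in either interferon contrast 0 of the 9 were then called. The cause was not tested.

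Leaving out a library in turn gave 1864 to 3175 genes between dpMSCs and mpMSCs, 1655 to 2449 in osteoblasts, 302 to 2180 between bmECs and mpECs, 31 to 63 for interferon in dpMSCs, 25 to 364 in endothelium and 0 to 84 for the interaction, with fewer sums in each fit. Class I genes called ranged from 2 to 5 in endothelium against mpMSCs, where 30.2 to 40.5% of all genes were called. They ranged from 0 to 2 in bmECs, where 2.46 to 20.4% of all genes were called. For interferon they ranged from 0 to 1 in dpMSCs (0.265 to 0.528% of all genes) and 0 to 3 in endothelium (0.214 to 3.05%). With no filter on low counts the numbers were 89, 272 and 97 for the interferon contrasts and the interaction, and 2 class I genes passed in bmECs. DESeq2's Wald test gave 65 genes for interferon in endothelium and 2 class I genes in dpMSCs. Scaling by totals gave 7133 genes and 8 class I genes in osteoblasts. With 1 interferon gate gene more, 2 class I genes passed in dpMSCs and 7 genes in the interaction, and with 1 fewer 11 genes passed there. The interaction had 0 genes with called doublets removed, 0 with the stricter gate and 9 without cycling cells.

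Septoclasts rested on 22 and 17 cells in the metaphyseal libraries, which limits every gene under about 50 CPM there.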

Other observations

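In dpMSCs of the *Pdgfra-GFP* library 655 of 3243 cells passed the interferon gate, 283 of them at the gate itself, and 482 cells lay just below it. Cells with more gate genes were not matched for depth, and how class I levels vary with the number of gate genes was not tested.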
